A study of Mus musculus with 24 samples.

Results

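The whole lineage-negative (Lin-) fraction of mammary tumours was compared with the same fraction of normal mammary glands, across all genes measured. The arrays were chosen by their titles, as those that name Lin- without a CD29 or CD24 gate, which gave 8 of the 24 arrays of the series. The 5 tumour arrays, A to E, came from 5 independent mammary adenocarcinomas of C57BL6/J mice carrying Apc+/1572T, a germline allele that truncates the Apc protein and that leaves 1 wild-type copy at birth. The 3 normal arrays, F to H, came from 3 separately isolated pools of mammary glands of C57BL6/J Apc+/+ mice, so tumours and glands differ in genotype as well as in histology, and each normal value is an average over the animals of a pool. From each tumour and each pool 10000 cells were sorted as Lin-, as CD29+CD24+ and as CD29hiCD24+, and the RNA was amplified in 2 labelling cycles before hybridisation to Affymetrix arrays. Lin- means that cells bearing lineage antibodies were removed; the labels name neither these antibodies nor the age and parity of the mice. Values are log2 signals, differences are tumour minus normal in log2 units (1 unit is 2-fold), and a gene rose or fell where limma's adjusted p was under 0.05.

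Apc is the scaffold of the complex that marks beta-catenin for destruction. When the complex fails, beta-catenin enters the nucleus, joins TCF and LEF factors and switches on Wnt target genes, several of which encode inhibitors that feed back on the pathway. The mammary epithelium has a luminal layer, part of which senses estrogen and progesterone, and a basal layer of contractile myoepithelial cells, whereas skin-type (squamous) keratinisation is not a feature of the resting gland. Mammary tumours driven by Wnt signalling in mice are known for mixed lineages, squamous areas among them.

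The labels were checked against Apc first. Apc had 10.84, 10.59, 11.07, 10.90 and 9.13 in tumours A to E, against 13.48, 12.65 and 12.79 in normal pools F to H. The groups did not overlap, as for 38.7% of all genes, and the difference was -2.47 (SE 0.563, adjusted p = 0.00132). The 4 probe sets of Apc differed by -2.47, -0.20, -3.63 and -1.89. Where they lie relative to the truncation is not stated, so they do not check the mutant allele itself. The epithelial surface gene Epcam had 13.36, 13.76, 13.48, 13.44 and 13.25 in tumours and 14.26, 13.79 and 14.19 in normal pools. Between arrays, the correlation over genes was 0.951 to 0.981 among the tumours, 0.969 to 0.984 among the pools and 0.849 to 0.895 between a tumour and a pool.

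Several arrays stood apart from their group. Pool F was low in basal and contractile transcripts: the mean log2 signal of the basal epithelial list was 7.78 in F, lower than 9.28 (G) and 9.24 (H). Pool G lacked the leukocyte antigen Ptprc, at 2.60 against 7.78 in F and 8.09 in H, and had the widest gap between 3′ and 5′ actin probe sets, 2.86 against 1.54 to 1.98 in the other pools and 1.68 to 2.56 in the tumours. For Gapdh the same gap, which is read as a measure of RNA quality, was 1.78 to 2.02 in tumours and 2.21 to 2.76 in pools. The submitters numbered the samples, and only tumour E (number 90) lies in the number range of the pools (82 to 95). The Lin- arrays of pools F, G and H have numbers 93, 84 and 95. Whether this goes with the values of pool G was not tested. Tumours A and B have numbers 19 to 24 and tumours C and D 56 to 64. Whether the numbers follow separate hybridisation runs is not stated, and number range and group can be told apart only through tumour E. A fit with the number range as a term called 5618 genes. Only 4529 of the 5470 genes called without that term were among them with the same sign.

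Of 13485 genes tested, 5470 (40.6%) passed: 1881 (13.9%) rose in tumours and 3589 (26.6%) fell. The difference was at least 2-fold for 3721 (27.6%), of which 1313 (9.74%) rose and 2408 (17.9%) fell. For 5221 genes (38.7%) the 5 tumours and the 3 pools did not overlap. The balance of directions depends on the scale: centring each array on its median adds 0.298 to every log2 difference and makes 6631 calls, 61.2% of them higher, against 34.4% of the calls on the deposited scale. With tumour E as the only tumour, 5462 of the 5470 genes had the same sign. E is among the 5 tumours, and no spread among tumours enters that fit, so this is no separate check. The median SD per gene was 0.320 in tumours and 0.266 in pools. In sorted bulk RNA, fewer cells of a type and less RNA per cell cannot be told apart.

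The highest differences belonged to genes of keratinising epithelium. Krtdap, a keratinocyte differentiation-associated protein, had 12.68, 13.69, 14.17, 13.65 and 14.78 in tumours A to E, against 3.02, 2.99 and 3.55 in pools F to H. Every tumour was thus far above every pool, whose values lie near the lowest signals of the array, and the difference was 10.60 (SE 0.443, adjusted p = 1.99e-13). Calm4, a calmodulin-like protein of skin, had 11.39, 11.73, 12.33, 12.92 and 13.84 in tumours and 1.79, 1.83 and 3.38 in pools, a difference of 10.11 (SE 0.828, adjusted p = 4.96e-09). Krt6b, a keratin of wounded and stressed epidermis, had 12.54, 13.16, 13.52, 11.62 and 13.82 in tumours and 2.97, 2.91 and 2.91 in pools, a difference of 10.00 (SE 0.496, adjusted p = 2.46e-12). The groups of both genes were separated by more than 8 log2 units. Asprv1, the skin protease that processes filaggrin, had 10.77, 11.45, 12.29, 12.22 and 12.62 in tumours and 2.29, 1.88 and 1.77 in pools, a difference of 9.89. Grhl3, a transcription factor of epidermal barrier formation, had 10.85, 11.98, 12.51, 11.77 and 12.59 in tumours and 3.44, 3.33 and 3.28 in pools, a difference of 8.59 (SE 0.478). Scel and Sprr1b, which are built into the cornified envelope, rose by 9.01 and 8.52, and Sprr2h of the same family rose by 8.75.

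The rest of the 15 highest genes have more varied roles. Calml3 among them is also a member of the squamous list used below. Serpinb2, an inhibitor of plasminogen activators, rose by 9.37 (SE 1.04), the amino acid transporter Slc6a14 by 9.18, the desmosomal cadherin Dsc3 by 9.02, Dynap by 8.86, the calmodulin-like Calml3 by 8.58, and the epithelial glutathione peroxidase Gpx2 by 8.36. S100a9, which with S100a8 forms calprotectin, had 10.53, 11.90, 12.31, 10.00 and 12.31 in tumours and 3.94, 2.42 and 2.26 in pools, a difference of 8.54 (SE 0.575). S100a8 rose by 7.26 (SE 0.801). Both genes are made by neutrophils and by stressed keratinocytes, and the neutrophil receptor gene Csf3r averaged 3.56 in tumours and 3.38 in pools, near the low end of the array in both.

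**Figure D1:**
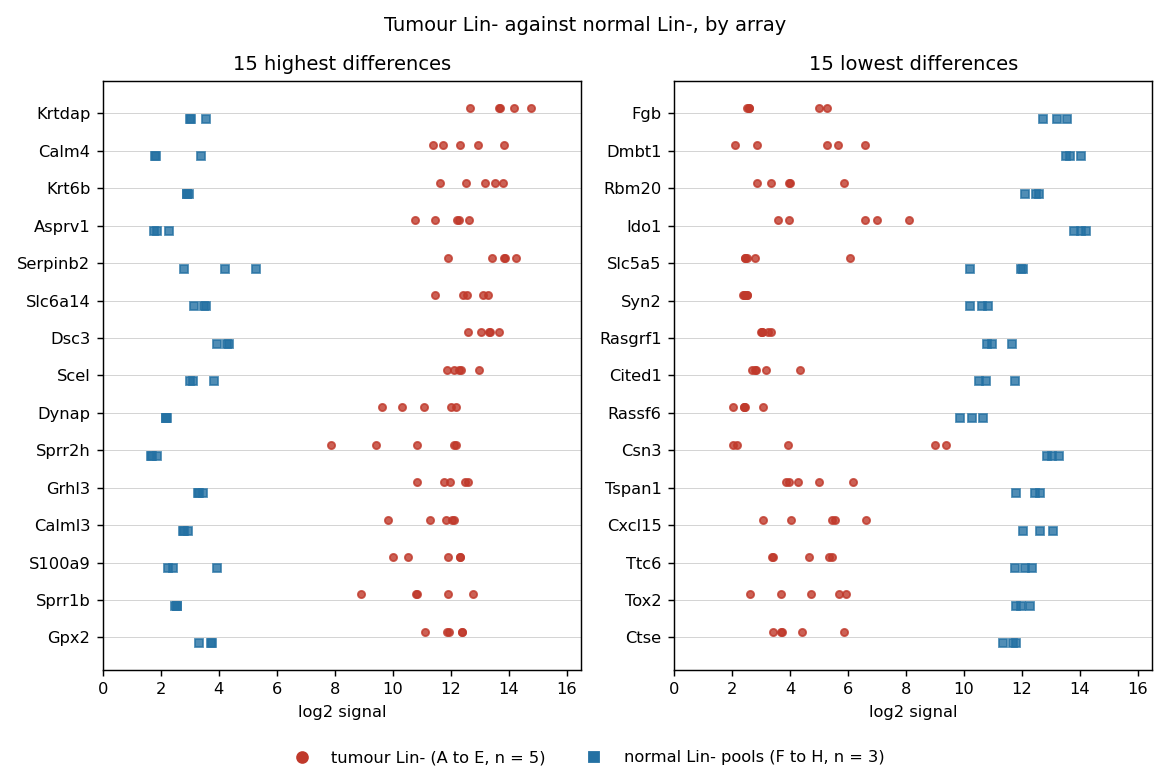
The 15 genes with the highest (left) and the 15 with the lowest (right) differences among called genes; the x axis is the log2 signal, red circles are the 5 tumour Lin- arrays and blue squares the 3 normal Lin- pools. The 30 genes were taken among those whose groups do not overlap, and Csn3 has the widest spread among tumours.

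Of the 26 squamous genes measured, 24 rose and none fell, with a median difference of 6.73 beside -0.08 over all genes tested. Among all genes 13.9% rose and 26.6% fell. The list has 29 genes on the array, of which 26 passed the filter on low values. In the normal pools 7 of the 26 averaged no more than 2.83, a level from which a gene can hardly fall. The exceptions were Klk5 (0.44), a protease of skin shedding that was low in both groups, and Ivl (1.63), which encodes involucrin. The list mean was 10.00, 10.50, 11.26, 11.05 and 11.93 in tumours A to E and 5.27, 4.86 and 5.05 in pools F to H. Keratins of the spinous layer set tumours apart from each other: Krt1 had 6.98, 7.76, 11.02, 11.67 and 12.84 in tumours and 2.09, 2.02 and 2.26 in pools, and Krt10 had 12.01, 12.16, 14.01, 14.45 and 14.79 in tumours and 7.77, 6.02 and 7.37 in pools. Tumours A and B were the lowest for both, and all tumours were above all pools. Krt16, a keratin of activated epidermis, varied less, with 14.19, 14.60, 14.80, 14.39 and 15.05 in tumours and 6.84, 8.68 and 8.07 in pools. Some squamous genes were already high in normal glands, such as Krt6a, which averaged 14.79 in tumours and 13.71 in pools. Of 7 hair follicle genes 3 rose (S100a3, Foxn1, Dlx3), the last 2 by under 1 unit, and Msx2 fell (-1.37), a call that was lost without any of tumours A, B and C and pools F and H and under other scalings.

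Genes of the hormone-sensing luminal cell were much lower in tumours. Of 11 measured genes of that list 8 fell and none rose, with a median of -5.77, whereas 26.6% of all genes fell and 13.9% rose. Esr1, the estrogen receptor, had 6.40, 6.95, 5.66, 2.88 and 2.85 in tumours A to E, against 12.40, 12.33 and 12.29 in pools F to H, a difference of -7.39 (SE 1.26, adjusted p = 7.39e-05). Tumours D and E were at the low end of the array, and no tumour came near a pool. Pgr, the progesterone receptor and a target of estrogen, had 7.32, 7.88, 6.90, 7.99 and 6.58 in tumours and 13.62, 12.64 and 13.05 in pools, a difference of -5.77 (SE 0.582, adjusted p = 9.97e-08). Cited1, a coregulator present in hormone-receptor-positive cells, had 3.17, 4.33, 2.70, 2.82 and 2.80 in tumours and 10.53, 10.74 and 11.75 in pools, a difference of -7.84. Both genes separated the groups without overlap. Foxa1, the pioneer factor that opens chromatin for the estrogen receptor, fell by 4.46 (SE 0.759), and Wnt4, a ligand released under progesterone, fell by 4.81 (SE 0.501). Fgb, the fibrinogen beta chain and also a member of that list, had the lowest difference of all called genes: 4.98, 5.27, 2.50, 2.57 and 2.57 in tumours, against 13.21, 12.71 and 13.55 in pools, a difference of -9.58 (SE 1.16, adjusted p = 1.21e-06). Gata3 (-0.67), which specifies luminal cells, did not pass, nor did Tbx3 (-0.08). Tnfsf11, which encodes RANKL, differed by 2.24 and did not pass either, although 1 gene of the list rose after median centring or quantile normalisation.

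Some single genes of secretion and transport were among the lowest, but the lists they come from did not fall as a whole. Of 12 milk protein and secretory genes 3 fell and 1 rose (median 0.04), and of 16 transport genes 7 rose and 4 fell. Over all genes 13.9% rose and 26.6% fell. Dmbt1, a mucosal scavenger protein, had 6.60, 5.64, 2.85, 5.26 and 2.09 in tumours and 14.05, 13.66 and 13.52 in pools, a difference of -9.25 (SE 1.77). Slc5a5, the sodium-iodide symporter, had 2.44, 6.07, 2.79, 2.50 and 2.45 in tumours and 12.04, 10.20 and 11.96 in pools, a difference of -8.15 (SE 1.17). Tumour B alone kept a level of Slc5a5 well above the low end. Ido1, which breaks down tryptophan, fell by 8.17 (SE 1.55), the water channel Aqp5 by 6.44 (SE 0.915), and Cxcl15, a chemokine first described in lung and here in the hormone-sensing list, by 7.63 (SE 1.38). Rbm20, Syn2, Rasgrf1, Rassf6, Tspan1, Ttc6, Tox2 and Ctse complete the 15 lowest, with differences of -8.38 to -7.41. Another probe set of Ctse has the opposite sign (0.19). Slc5a1, a sodium-glucose cotransporter, had 11.29, 12.51, 14.05, 12.79 and 14.06 in tumours and 6.53, 7.09 and 6.13 in pools, a difference of 6.36 (SE 0.783).

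General luminal genes fell by less and unevenly. Of 15 measured, 11 fell and none rose, with a median of -2.41, whereas 26.6% of all genes fell and 13.9% rose. Krt8 had 12.10, 12.56, 11.17, 9.54 and 7.34 in tumours and 14.90, 14.94 and 14.83 in pools, a difference of -4.35 (SE 0.922, adjusted p = 0.000693). Its partner Krt18, with which it forms the filaments of simple epithelium, had 11.74, 12.15, 10.31, 10.21 and 7.46 in tumours and 15.26, 15.08 and 15.34 in pools, a difference of -4.85 (SE 0.849, adjusted p = 9.94e-05). Tumour E was lowest and tumour B highest for both keratins, and the pools were nearly equal. The luminal list mean was 10.72, 11.05, 9.93, 9.74 and 9.18 in tumours A to E and 13.03, 12.67 and 12.97 in pools F to H. Tight junction genes Cldn7 and Cldn3 fell by 5.61 and 4.90. Cd24a, whose product is one of the sorting antigens of the gated populations, fell by 1.45 (SE 0.171), with high signals in every array. Epcam fell by 0.62 (SE 0.221, adjusted p = 0.0293), a call lost without any of tumours C and D and pools F and H and after median centring. Cdh1, which encodes E-cadherin, differed by -0.06 (SE 0.147).

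Of 12 luminal progenitor and alveolar genes 4 fell and 2 rose (median -2.12), numbers near the shares over all genes, of which 26.6% fell and 13.9% rose. Kit, a growth factor receptor of luminal progenitors, had 9.88, 9.56, 8.78, 10.12 and 9.11 in tumours and 7.53, 5.72 and 7.43 in pools, a difference of 2.60 (SE 0.593). Ehf, an ETS factor of epithelia, rose by 3.76 (SE 0.576). The related factor Elf5, which drives alveolar fate, differed the other way, by -2.57 (SE 0.844, adjusted p = 0.0186), a call lost without pool H (-2.21) and without tumours C and E (-2.74). Stat5a, through which prolactin acts, had 5.90, 6.78, 6.55, 5.91 and 6.002 in tumours and 10.30, 9.60 and 10.19 in pools, a difference of -3.80 (SE 0.332, adjusted p = 1.34e-08). Of 10 genes of the prolactin and STAT5 axis 5 fell, Stat5b among them (-1.64), and Id2 and Igf1r rose. Csn3, the kappa-casein, had 9.01, 9.38, 3.93, 2.15 and 2.02 in tumours and 13.27, 13.04 and 12.85 in pools, a difference of -7.76 (SE 2.25); it was not called when tumours C and E were both left out (-6.21).

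The basal layer gave opposite results for its keratins and for its contractile apparatus. Of 17 basal epithelial genes 13 rose and none fell (median 2.66), whereas of 13 contractile genes 9 fell and none rose (median -3.20). The shares over all genes were 13.9% higher and 26.6% lower. Krt14 had 14.67, 14.82, 14.65, 14.49 and 14.90 in tumours, against 9.40, 12.52 and 12.19 in pools, a difference of 3.34 (SE 0.407, adjusted p = 1.33e-06). Krt5, its partner in basal filaments, had 13.86, 14.16, 13.79, 13.36 and 13.89 in tumours and 7.30, 10.65 and 10.26 in pools, a difference of 4.41 (SE 0.457). Trp63, the transcription factor that maintains basal and stratified epithelium, had 12.76, 13.02, 13.17, 12.54 and 13.11 in tumours and 6.36, 8.10 and 8.29 in pools, a difference of 5.34 (SE 0.328, adjusted p = 6.36e-11). The tumours were alike and all above the pools, and pool F was lowest for each of these genes. The hemidesmosome collagen Col17a1 rose by 4.25 and the laminin chain gene Lama3 by 3.52. The integrin genes Itga6 (-0.18) and Itgb1 (0.80, adjusted p = 0.0663) did not pass; Itgb1 encodes CD29, and 1 of its other probe sets has the opposite sign.

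Cnn1, the smooth-muscle calponin, had 3.25, 4.55, 2.69, 2.42 and 2.19 in tumours, against 6.08, 9.65 and 9.48 in pools, a difference of -5.38 (SE 0.771, adjusted p = 1.00e-05). Oxtr, the receptor through which oxytocin makes myoepithelial cells contract, had 2.62, 3.20, 2.59, 2.88 and 2.63 in tumours and 5.05, 8.63 and 8.13 in pools, a difference of -4.48 (SE 0.718). Neither gene overlapped between the groups, although pool F lay nearer the tumours. Acta2, smooth-muscle actin, remained well above the low end with 11.81, 12.26, 11.59, 8.24 and 8.33 in tumours and 12.41, 14.42 and 14.11 in pools, a difference of -3.20 (SE 0.832). Tagln had 8.28, 8.06, 8.60, 3.63 and 4.48 in tumours and 9.19, 11.76 and 11.99 in pools. For both genes tumours D and E were the lowest. Cald1 (0.06) and Tpm2 (-0.15), whose products also occur in non-muscle cells, did not pass. Without pool F 11 of the 13 contractile genes fell, and without pool G 6 did.

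**Figure D2:**
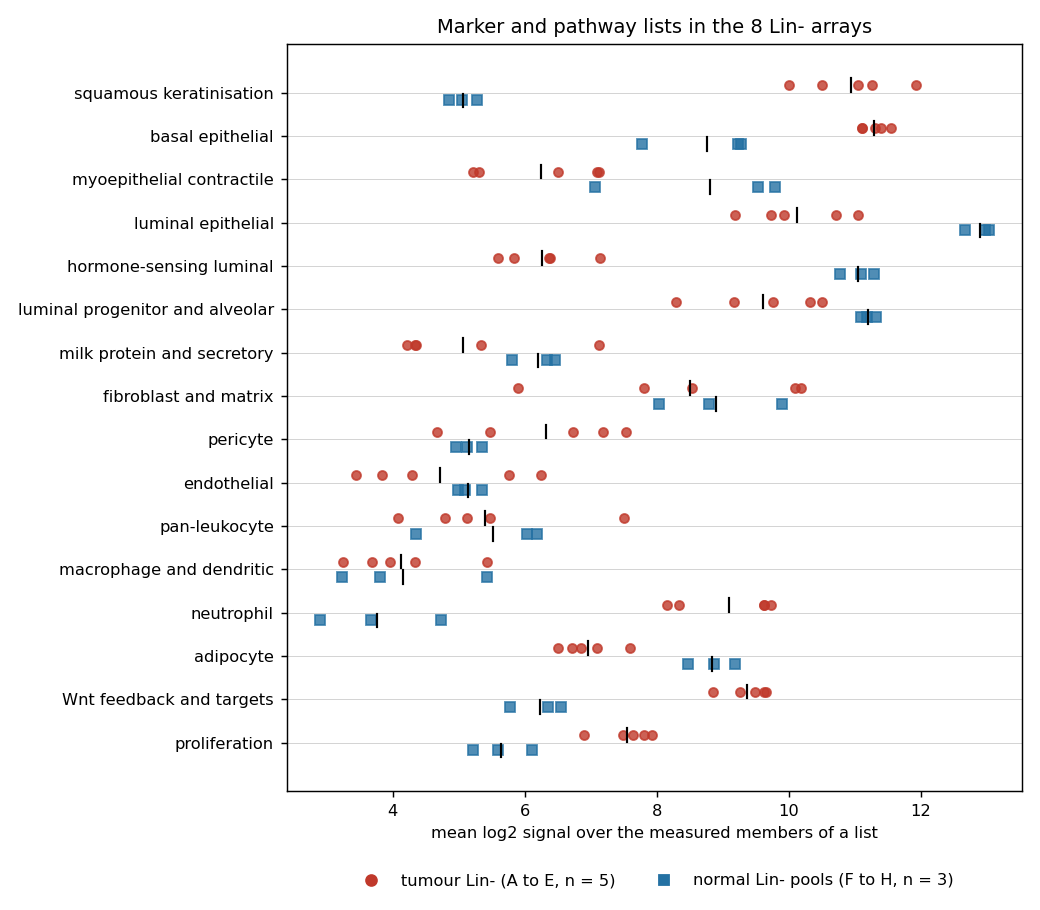
Mean log2 signal over the measured members of 16 marker and pathway lists (x axis) in each Lin- array; red circles are the 5 tumours, blue squares the 3 normal pools, and black bars the group means. Squamous means are 10.00 to 11.93 in tumours and 4.86 to 5.27 in pools, and the luminal lists lie lower in tumours. The fibroblast, endothelial, pan-leukocyte and macrophage lists overlap. The neutrophil list, which holds S100a8 and S100a9, does not, with 8.16 to 9.73 in tumours and 2.90 to 4.74 in pools.

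Most feedback inhibitors and targets of the Wnt pathway were higher in tumours. Of 17 measured, 11 rose and none fell, with a median of 2.78, whereas 13.9% of all genes rose and 26.6% fell. Wif1, a secreted protein that binds Wnt ligands, had 14.47, 14.38, 14.63, 14.69 and 14.44 in tumours A to E, against 5.18, 8.47 and 7.74 in pools F to H, a difference of 7.39 (SE 0.427, adjusted p = 2.45e-11). The tumours were nearly equal, and all lay far above the pools. Sostdc1, a secreted antagonist of BMP and Wnt signals, had 11.29, 10.35, 10.38, 11.29 and 11.96 in tumours and 2.998, 3.41 and 5.25 in pools, a difference of 7.17 (SE 0.626). Nkd2, an inhibitor that acts on Dishevelled, had 10.79, 10.12, 8.25, 10.38 and 8.87 in tumours and 2.63, 3.37 and 2.97 in pools, a difference of 6.69 (SE 0.592). Notum, an enzyme that strips the lipid from Wnt ligands, had 9.16, 8.99, 7.22, 9.12 and 8.50 in tumours and 2.57, 2.56 and 2.56 in pools, a difference of 6.04 (SE 0.450). Axin2, the scaffold induced as direct feedback, had 7.98, 7.84, 6.98, 7.86 and 7.38 in tumours and 2.84, 3.55 and 2.62 in pools, a difference of 4.60 (SE 0.354, adjusted p = 1.95e-09). Tumour C was the lowest of the tumours for Nkd2, Notum and Axin2, and no tumour overlapped a pool.

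Other members reached less far. Lgr5, a receptor for R-spondins that marks Wnt-dependent stem cells, had 8.62, 8.31, 7.44, 8.66 and 7.30 in tumours and 3.87, 7.17 and 6.32 in pools, a difference of 2.28 (SE 0.545, adjusted p = 0.00199); the groups nearly met. Without pool F the difference was 1.32, and with tumour E as the only tumour it was 1.51. The call was lost when the description-number range entered the fit (1.54). Cd44 (3.54), Apcdd1 (3.59), Tnfrsf19 (5.88), Lgr6 (2.78) and the ligase Znrf3 (1.74) rose. Some well-known targets did not pass: Myc differed by 0.26 (SE 0.435), Ccnd1 by 0.15 (SE 0.260) and Sox9 by 0.16 (SE 0.535), all at moderate to high signal in both groups. Nkd1 and Ascl2 were near the low end in both. Among the ligands Wnt10a rose by 2.79 (SE 0.454) and Wnt11 by 1.16, while Wnt4, Wnt7b and Wnt5a fell; both of the last calls were lost without pool F and that for Wnt7b also without pool H. Of 11 secreted antagonists 4 rose, Sfrp1 (1.80) with Wif1, Sostdc1 and Notum, beside 13.9% of all genes. The Dkk genes measured differed by 0.06 to 0.53 with none passing.

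**Figure D3:**
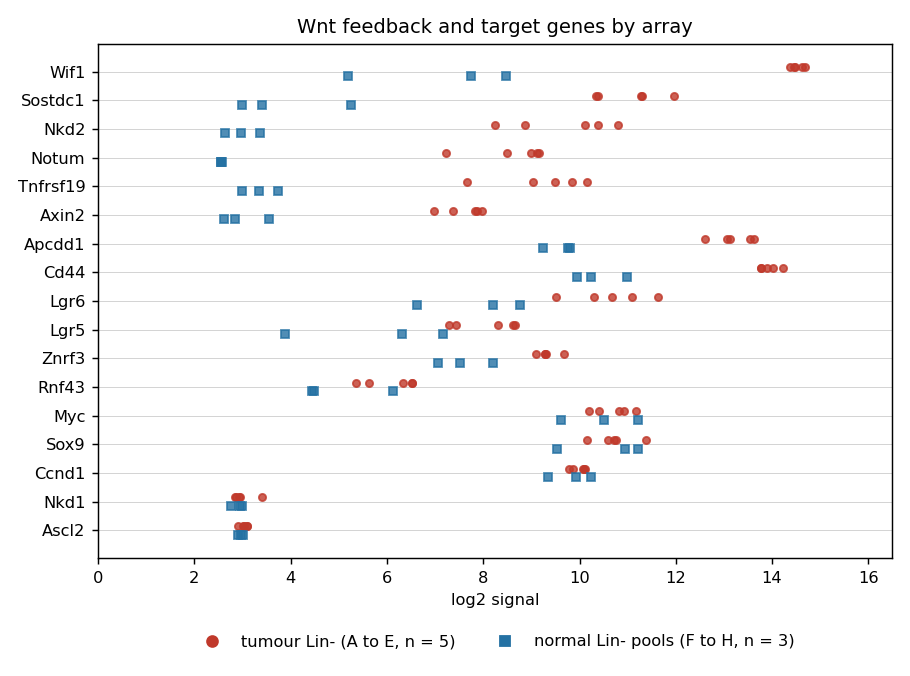
Log2 signal (x axis) of the 17 Wnt feedback and target genes, ordered from the highest to the lowest difference, in 5 tumour Lin- arrays (red circles) and 3 normal Lin- pools (blue squares). The 5 Wif1 values of tumours lie between 14.38 and 14.69, and the last 6 genes, from Rnf43 to Ascl2, overlap between the groups.

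Proliferation genes rose in most cases. Of 27 measured, 18 rose and 2 fell, with a median of 1.90, whereas 13.9% of all genes rose and 26.6% fell. Mki67, the antigen of cycling cells, had 10.49, 9.58, 9.56, 10.49 and 9.90 in tumours and 4.44, 6.72 and 6.08 in pools, a difference of 4.26 (SE 0.522, adjusted p = 1.42e-06). Top2a, the topoisomerase that untangles chromosomes before mitosis, had 8.90, 8.23, 8.01, 9.68 and 8.63 in tumours and 3.82, 5.97 and 4.79 in pools, a difference of 3.83 (SE 0.497). Rrm2, which makes deoxynucleotides, had 10.53, 10.74, 10.45, 11.66 and 11.04 in tumours and 6.71, 7.89 and 5.52 in pools, a difference of 4.18 (SE 0.445). All tumours were above all pools for the 3 genes. Mcm6, a helicase subunit, was the only 1 of 6 Mcm genes that fell, with 10.63, 10.67, 9.76, 10.91 and 9.83 in tumours and 11.66, 11.87 and 11.75 in pools (-1.40, SE 0.271), whereas Mcm5 (3.07), Mcm3 (1.98) and Mcm7 (1.17) rose. The mitotic kinase gene Aurka fell by 1.36 (SE 0.540, adjusted p = 0.0492), just inside the threshold, with tumour E (4.78) above pool G (4.68). Only 1 gene of the list fell under quantile normalisation, after median centring, without pool F and without tumours C and E.

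Promoters from RefSeq (GRCm38.p6) were read for the leading proliferation and Wnt genes, because members of both lists moved together. The windows run from 250 bases before to 50 after the gene start. The cell cycle homology region TTTGAA, a motif of late cell cycle genes searched on both strands, occurs in 17.9% of 32851 such windows. Mki67 and Top2a each hold it at 2 places, in capitals below, written in the direction of the gene.
Mki67, chr7:135716330-135716629, minus strand: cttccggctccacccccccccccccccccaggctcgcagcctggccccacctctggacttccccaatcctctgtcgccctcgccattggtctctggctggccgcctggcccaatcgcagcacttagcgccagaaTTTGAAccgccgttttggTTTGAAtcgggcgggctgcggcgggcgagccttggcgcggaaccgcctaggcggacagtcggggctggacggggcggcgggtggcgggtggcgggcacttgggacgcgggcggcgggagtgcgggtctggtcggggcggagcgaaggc
Top2a, chr11:99024140-99024439, minus strand: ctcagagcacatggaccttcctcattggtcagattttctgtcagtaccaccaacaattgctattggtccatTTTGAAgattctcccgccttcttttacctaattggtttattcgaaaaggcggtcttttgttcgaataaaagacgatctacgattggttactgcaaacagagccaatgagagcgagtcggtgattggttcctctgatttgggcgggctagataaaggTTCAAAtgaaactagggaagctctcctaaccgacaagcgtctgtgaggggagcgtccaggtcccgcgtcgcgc
The Rrm2 window held none. Windows were given for 3 of 6 Wnt genes looked up, Wif1, Nkd2 and Axin2, and none held CTTTGAT, the core letters of a TCF and LEF site, which occurs in 3.73% of all windows on either strand. The E2F motif TTTCCCGC (1.07% of windows) was in none of the 6. A match is a run of letters and was not tested for binding.

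Among CDK inhibitors and p53 targets 5 of 15 genes rose and 2 fell, beside 13.9% and 26.6% of all genes. Cdkn1a, the p21 inhibitor, had 13.56, 13.83, 14.00, 13.91 and 13.94 in tumours and 12.02, 12.14 and 11.71 in pools, a difference of 1.89 (SE 0.168, adjusted p = 1.74e-08). Cdkn2b, the p15 inhibitor induced by TGF-beta, had 10.76, 11.28, 9.52, 10.58 and 11.05 in tumours and 6.89, 6.36 and 7.30 in pools, a difference of 3.79 (SE 0.484). Neither overlapped between groups. Perp, a p53 target that is also a desmosome component, rose by 2.54, and Trp53inp1 fell by 3.70 (SE 0.580).

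Genes of epithelial junctions changed in both directions. Of 24 measured, 10 rose and 5 fell. Over all genes 13.9% rose and 26.6% fell, shares to be set beside each list of this paragraph. The desmosomal plaque genes Pkp1 (2.43), Pkp3 (1.22), Jup (1.45) and Dsp (0.72) rose, as did Ovol1 (3.87), a transcription factor of epidermal differentiation, and the claudin gene Cldn1 (2.29). Pkp2 (-6.33), Dsg2 (-2.14), and the tight junction genes Cgn (-3.75) and Tjp3 (-1.47) fell. Of 17 genes of mesenchymal transition 3 rose, Tgfbi (2.72), Snai2 (1.77) and Tgfb2 (1.76), and none fell. In the glutathione and oxidative stress list 7 of 20 rose and 3 fell. Gpx2 and the transferase gene Gsta4 (2.87) rose the most, while Gpx3, a secreted peroxidase, had 9.35, 8.10, 9.22, 4.25 and 7.06 in tumours and 13.77, 13.34 and 13.10 in pools (-5.81, SE 1.28), and Gstt1 fell by 3.56. Among 16 antimicrobial and mucosal genes 2 rose, Saa3 and Slpi (2.08), and 4 fell, numbers near the shares over all genes. Wfdc2, a secreted protease inhibitor of luminal glands, had 9.55, 8.76, 7.09, 5.78 and 3.65 in tumours and 13.60, 13.64 and 13.50 in pools (-6.62, SE 1.31), with tumour E the lowest.

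Cholesterol synthesis rose along most of its length: 14 of 17 genes rose and none fell, with a median of 1.17. Mvk, mevalonate kinase, had 5.41, 6.27, 6.14, 5.14 and 7.90 in tumours and 2.87, 3.16 and 3.36 in pools, a difference of 3.04 (SE 0.491), with tumour E the highest. Dhcr7, which makes the last step to cholesterol, had 7.27, 8.10, 7.92, 7.93 and 8.56 in tumours and 5.26, 5.94 and 5.56 in pools, a difference of 2.37 (SE 0.260). The count depends on the arrays: 9 genes rose without pool F, 10 without pool G and 7 without tumours C and E. Genes of fatty acid synthesis were mixed, 5 higher and 4 lower of 21, beside 13.9% and 26.6% of all genes. Dgat2 and Gpam of triglyceride assembly were among the lower. In the hypoxia and glycolysis list 6 of 18 rose, Egln3 (2.70) and Hk2 (2.07) the most, and Hk1 fell by 1.04, a call lost without pool F or H and under the mean of its probe sets.

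For the other signalling lists the shares over all genes are 13.9% higher and 26.6% lower. Notch, EGF and immediate early genes rose more often than that. No list was tested as a set, so the values below describe single genes. Of 17 Notch genes 6 rose and none fell, Jag2 by 2.93, Nrarp, a feedback target, by 2.48 and the receptor Notch1 by 2.002. In the EGF family Nrg1 (3.94), Egfr (2.66), Hbegf (2.21) and Tgfa (1.72) rose while Btc fell, with 3.47, 3.34, 3.23, 3.16 and 3.32 in tumours and 9.52, 7.78 and 8.32 in pools (-5.24, SE 0.503), and Epgn fell by 2.37. Il1a, an alarm cytokine stored in keratinocytes, had 8.87, 10.36, 10.70, 8.85 and 10.85 in tumours and 3.38, 2.64 and 2.91 in pools, a difference of 6.95 (SE 0.734, adjusted p = 1.85e-07). Saa3, an acute-phase protein, had 11.50, 12.03, 13.85, 9.07 and 12.44 in tumours and 5.08, 6.17 and 4.95 in pools, a difference of 6.38 (SE 1.27). All tumours exceeded all pools for both. Of 26 chemokines and cytokines 4 rose and 4 fell, of 17 interferon response genes 2 rose and 1 fell, and of 22 immediate early and dissociation genes 8 rose and none fell. Egr3 had 14.09, 14.32, 14.06, 14.38 and 14.22 in tumours and 10.09, 11.17 and 11.33 in pools, the largest difference of the last list (3.35, SE 0.286). Genes of that list answer to handling as well as to growth factors, and the part of tissue dissociation was not tested.

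Transcripts of cells other than epithelium were measured in both fractions. The counts below stand beside 13.9% of all genes that rose and 26.6% that fell. Of 20 fibroblast and matrix genes 2 rose (Fbln1 by 4.86, Fbln2 by 2.56) and 1 fell (Pi16, by 2.70, a call lost without pool F). The list mean was 10.09, 7.81, 10.19, 5.91 and 8.54 in tumours A to E and 9.89, 8.04 and 8.79 in pools F to H, so that tumour D lay below every other array. Pdgfra differed by -0.37 (SE 0.624) and Col1a1 by -0.47 (SE 0.803), and for both the sign changes with the probe sets used. Of 14 endothelial genes 2 fell, Tek and Eng, both lost without pool F. The leukocyte antigen Ptprc had 3.61, 8.34, 5.96, 5.35 and 2.71 in tumours and 7.78, 2.60 and 8.09 in pools, a wide overlap. Of 9 pan-leukocyte genes Lcp1 fell (-4.65) and Arhgdib rose (3.86), and none of 11 macrophage and dendritic genes passed in limma (0 of 11 at an unadjusted p under 0.05). Of 3 T and NK cell genes Il7r fell, by 2.49, with 2.40 to 2.47 in tumours and 5.66, 2.41 and 6.69 in pools F to H, so that pool G lay among the tumours. The neutrophil list had 9 genes on the array with 1 symbol, and only 3 passed the filter on low values. Of these, S100a8 and S100a9, also made by stressed keratinocytes, rose, and Csf3r (0.18) did not pass. No B cell, erythroid or skeletal muscle gene measured passed in limma, of 2, 2 and 4, and 0 of them had an unadjusted p under 0.05. Of 3 adipocyte genes Lipe and Pnpla2 fell; Fabp4 differed by -2.46 (SE 1.23, adjusted p = 0.122).

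The same tumours and pools also gave 2 gated populations, so each difference could be set against that of the CD29+CD24+ and the CD29hiCD24+ cells. In those, 5864 genes (43.5%) and 5199 genes (38.6%) passed. The difference of differences from CD29+CD24+ passed for 246 genes (1.82%), 25 higher (0.185%) and 221 lower (1.64%) in Lin-; with tumour and pool as a block it passed for 444, 63 higher and 381 lower. That from CD29hiCD24+ passed for 4817 genes (35.7%), 2137 higher (15.8%) and 2680 lower (19.9%), and for 6178 with the block. The 3 comparisons share their tumours and pools but no arrays.

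Basal genes accounted for the clearest departure from CD29+CD24+. For Krt14 the difference was 3.34 in Lin- and 10.67 in CD29+CD24+, a difference of -7.33 (SE 0.576, adjusted p = 5.96e-08), where tumours averaged 14.71 in Lin- and 14.64 in CD29+CD24+, and normal pools averaged 11.37 in Lin- and 3.97 in CD29+CD24+. Igfbp3 (-8.13), Antxr1 (-7.31), Krt17 (-7.30), Snai2 (-7.19), Sparc (-6.98), Col17a1 (-6.89) and Tenm2 (-6.79) were the other lowest, each at 2.17 to 4.24 in the normal CD29+CD24+ cells. Of the 17 basal genes 13 were lower in this test and none higher, beside 1.64% and 0.185% of all genes. Contractile genes followed, with 6 of 13 lower: Cnn1 fell in Lin- but averaged 2.30 in tumour and 2.17 in normal CD29+CD24+ cells. Wif1 (-4.05, adjusted p = 0.000286) and Lgr5 (-3.85, adjusted p = 0.00622) showed larger differences in CD29+CD24+ as well, whereas for Esr1 the 2 populations differed by 0.08 (SE 1.78), a wide interval. On the higher side stood Esm1, a proteoglycan of endothelium, at 4.52 in Lin- and 0.98 in CD29+CD24+ (3.54, SE 0.811, adjusted p = 0.0214), a call lost without any of tumours A, C and E and pool F. The other 7 of the 8 highest, Sdr42e1, AI429214, Trpm1, Asb8, Cdh17, Chn1 and Mfsd4b4, had differences of -2.16 to 0.04 in Lin- and of -4.27 to -2.35 in CD29+CD24+, and for 6 of them every tumour mean was at or under 4.82; with the stricter filter on low values only 6 genes were higher. The calls for Sdr42e1, Chn1 and Mfsd4b4 were lost without most single tumours, and that for Asb8 without pool H. For Trpm1 the probe set used differed by -2.16 in Lin- and another by 0.07.

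From CD29hiCD24+ the departure ran the other way for basal genes, with high signals already in normal CD29hiCD24+ cells: 13 of 17 basal genes had a higher difference in Lin- and none a lower one. Krt14 differed by 0.32 there, with 14.67 in tumour and 14.35 in normal cells. Wnt feedback and target genes had 10 of 17 higher and 1 lower. Their median difference was 2.78 in Lin- and 1.23 in CD29hiCD24+, where 9 rose and 3 fell. Their list means in pools F to H were 5.77, 6.56 and 6.36 in Lin- and 7.83, 7.79 and 8.23 in CD29hiCD24+. Late squamous genes led the higher side. Dsc1, a desmosomal cadherin of the upper epidermis, averaged 10.46 in tumour Lin- and 2.91 in tumour CD29hiCD24+ cells, with 2.78 and 3.21 in the normal populations, so that the differences were 7.68 and -0.30 (7.98 apart, SE 1.42, adjusted p = 0.000249). Krt1 (7.93 and 0.77) and Calml3 (8.58 and 2.24) behaved likewise, the call for Krt1 being lost without any 1 of the pools. Of 26 squamous genes 13 were higher and 2 lower, beside 15.8% and 19.9% of all genes. Krtdap, by contrast, was high in all tumour populations, with differences of 10.60, 10.03 and 8.86 in Lin-, CD29+CD24+ and CD29hiCD24+. Them5, Elovl4, Tmem204, Krt23 and Serpinb11 were the other 5 highest, with 6.37 to 7.84.

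Endothelial genes showed 10 of 14 higher differences from CD29hiCD24+, where the list means of CD29hiCD24+ cells were 3.23 to 3.78 in tumours and 6.01 to 8.80 in pools; in Lin- the list means were 3.45 to 6.25 in tumours and 4.99 to 5.35 in pools. The pool F CD29hiCD24+ array also carried macrophage transcripts, where its list mean was 8.76 while pool G had 3.47 and pool H 3.27. Without pool F 3253 genes passed. In this test 15.8% of all genes were higher and 19.9% lower. Ribosome biogenesis genes were higher in 13 of 20, with 15 falling in CD29hiCD24+ and 5 rising in Lin-; only 1 rose in Lin- without pool F, 2 without pool G and 2 without tumours C and E. On the lower side, 6 of 15 luminal and 5 of 11 hormone-sensing genes passed. The lowest single genes were Tesc (-6.65), Aoc1 (-6.26), Rasgrf1 (-5.79), Ccdc162 (-5.67), Steap1 (-5.79), Akr1c13 (-5.91) and Entpd3 (-5.64), and the mitotic kinesin Kif2c (-6.07). Kif2c differed by -1.26 in Lin- but by 4.80 in CD29hiCD24+. Proliferation genes were lower in 8 of 27 and higher in 1, not far from those shares, with list medians of 1.90 in Lin- and 3.54 in CD29hiCD24+. For Saa3 the differences were 6.38 in Lin-, 0.83 in CD29+CD24+ and 0.18 in CD29hiCD24+, and the Lin- value departed from the CD29hiCD24+ value (6.20, SE 1.80, adjusted p = 0.0105), while its departure from the CD29+CD24+ value did not pass (5.55, SE 1.80, adjusted p = 0.186).

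**Figure D4:**
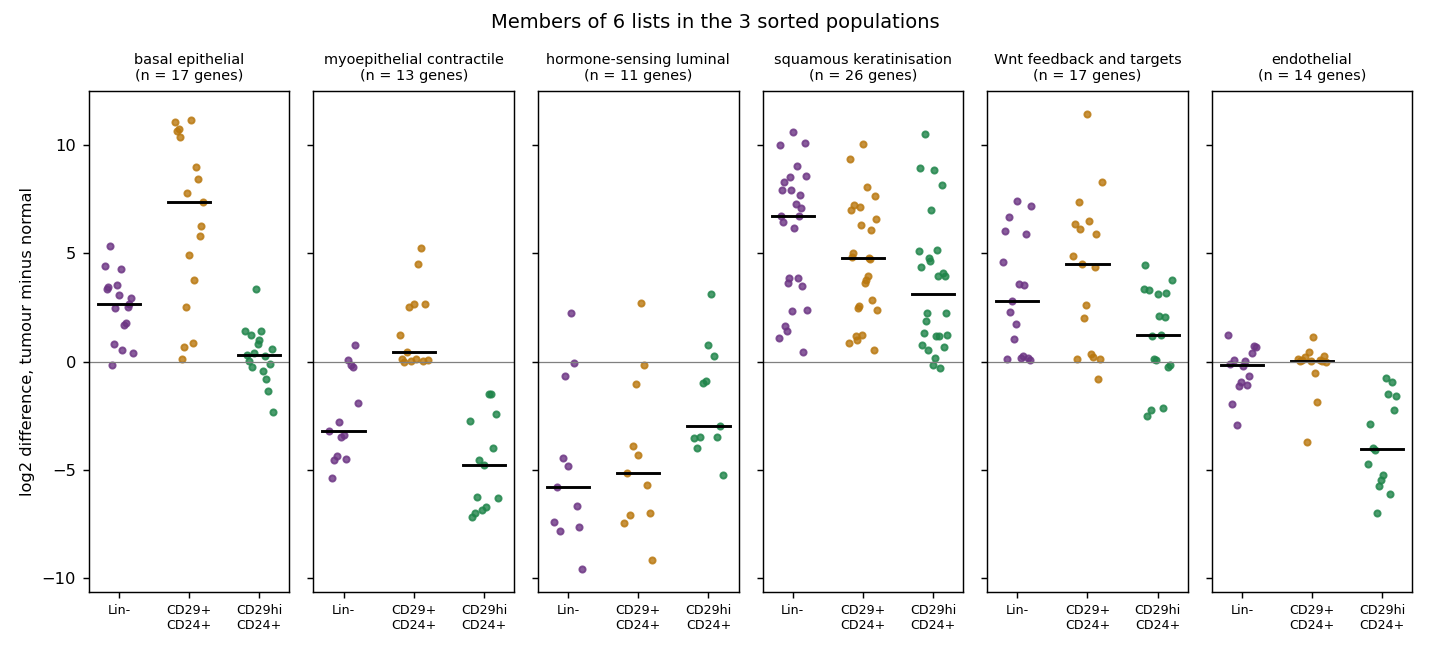
Log2 differences, tumour minus normal (y axis), of the members of 6 lists in the Lin-, CD29+CD24+ and CD29hiCD24+ populations; each point is a gene and each bar the median of the list. The basal median is 2.66 in Lin-, 7.39 in CD29+CD24+ and 0.32 in CD29hiCD24+, and the endothelial median is near 0 except in CD29hiCD24+, at -4.03.

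Some transcripts set single tumours apart from the other Lin- arrays. In tumours C and E 10 genes were at least 3 log2 units above all 6 other Lin- arrays, most of them secreted proteins of salivary and lacrimal glands. Bpifa2, the parotid secretory protein, had 2.24, 2.30, 14.57, 2.27 and 12.23 in tumours A to E and 2.26, 2.27 and 2.22 in pools F to H. Amy1, the salivary amylase, had 4.49, 3.18, 15.01, 2.93 and 12.15 in tumours and 7.75, 7.61 and 7.89 in pools. Pip, the prolactin-induced protein, had 3.06, 3.17, 13.32, 3.09 and 8.32 in tumours and 3.02, 3.08 and 2.76 in pools. The gated arrays of tumour C held all 10, Bpifa2 at 14.69 in CD29+CD24+ and 14.29 in CD29hiCD24+ cells. In tumour E Bpifa2 had 13.31 in CD29+CD24+ cells but only 2.29 in CD29hiCD24+ cells, at the low end of the array. Another of the 10, 2310057J18Rik, was also at 6.45 in the CD29hiCD24+ cells of tumour B. Tumour C alone was set apart by 19 genes, 7 of them also in that set of 10, and among the others were Mucl2 at 14.65 against at most 3.005 in the other Lin- arrays and Scgb1b27 at 13.47 against at most 2.74. Whether gland tissue was collected with these tumours was not tested; without tumours C and E 4986 genes passed, and squamous and Wnt counts were 22 of 26 and 12 of 17 higher.

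In tumour A the milk proteins Csn2 (10.47) and Csn1s2a (11.24) were set apart, at most 3.72 and 2.38 in the other Lin- arrays. Both were higher still in the CD29+CD24+ cells of the same tumour, at 14.09 and 14.53. Csn2 was not confined to tumour A, with 6.70 in CD29+CD24+ cells of tumour B and 4.42 in CD29hiCD24+ cells of tumour C. Tumour B was set apart by 9 genes, most of them known from myeloid cells. Ccl3, a macrophage chemokine, had 8.36, 11.997, 7.63, 6.35 and 2.79 in tumours A to E and 5.62, 2.93 and 3.27 in pools, and Clec4e, a myeloid lectin, had 3.53, 8.69, 4.46, 3.14 and 3.16 in tumours and 3.10, 3.06 and 2.95 in pools. In the gated arrays of tumour B Clec4e was at 3.16 and 3.14. Tumour D had Rptn (9.84), a cornified envelope protein, and Jakmip2 (7.98), and tumour E had the squamous metallothionein Mt4 (7.70). Rptn was also present in normal pools G (6.43) and H (6.14). All of these genes were picked for their spread and are given as values without a test.

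**Figure D5:**
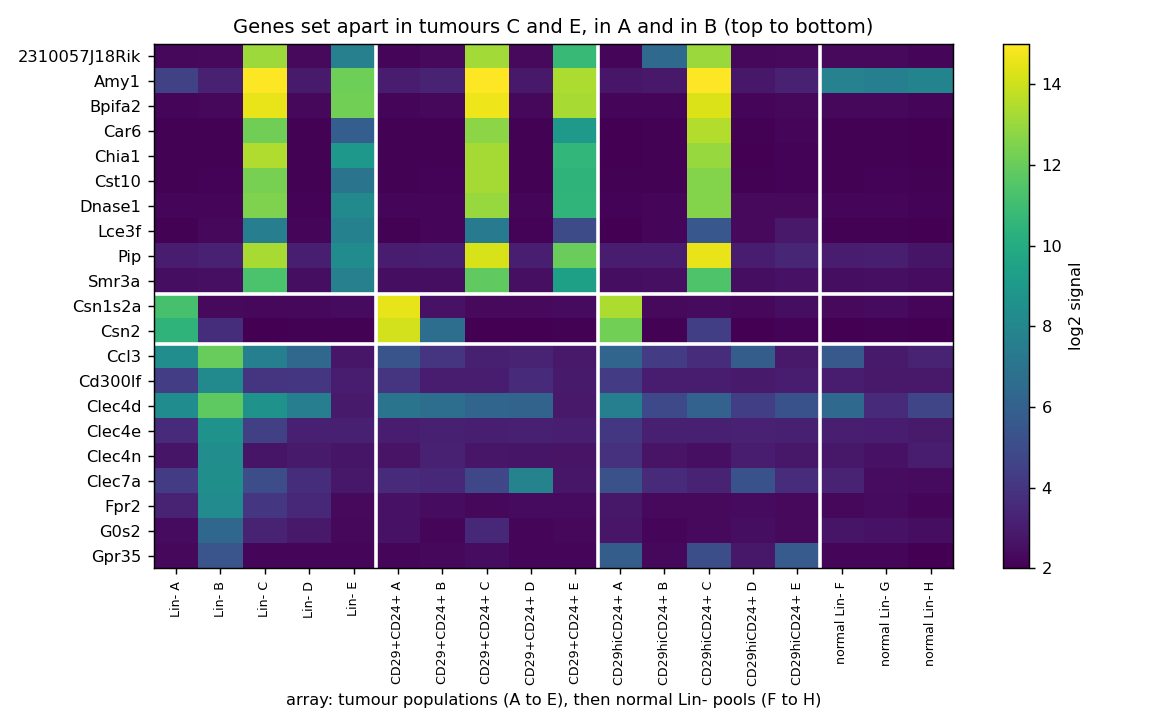
Log2 signal (colour) of the 10 genes set apart in tumours C and E, the 2 in tumour A and the 9 in tumour B, in the Lin-, CD29+CD24+ and CD29hiCD24+ arrays of tumours A to E and in normal Lin- pools F to H. The gland-type genes are high in all 3 arrays of tumour C and in 2 of tumour E, and the genes of tumour B are highest in its Lin- array among the 3 arrays of that tumour.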

How the data were processed

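The authors deposited log2 expression values for 45101 probe sets on 24 arrays; the submitters' processing notes name RMA, GCRMA and Partek, with no version or role. Probe sets with 1 gene symbol (34945) gave 18193 genes, each by the probe set of highest mean; 13485 exceeded 2.83 in at least 3 arrays. This limit is the 40th percentile of all values, so about 40% of values lie in this low band by definition. Differences are compressed there. limma 3.58.1 in R 4.3.3 fitted 6 group means over all arrays (lmFit, eBayes with trend), with Benjamini-Hochberg adjustment over 13485 genes; the fit was tested on simulated data. The p-values rest on 1 spread estimated over all 24 arrays, in which the arrays of the same tumour or pool count as independent. With only the Lin- arrays in the fit 4774 genes passed, and with tumour and pool as a block 5520. They describe these tumours and pools only. Letters mark the same tumour or pool across populations: deviations correlated at a median of 0.600 for 10 same-tumour pairs (0.359 to 0.738) and 0.192 for 6 same-pool pairs (0.0151 to 0.319); 2 arrays without a letter were taken as H by elimination. The arrays, gene lists and comparisons were chosen with earlier results of these data known. Named by rule were the 15 highest and lowest called genes whose groups do not overlap, the 8 highest and lowest in each test against a gated population, the 8 of largest spread among tumours, up to 4 called members of each list and the defining markers; other genes were named after their values were seen. List genes without a probe set of 1 symbol were not analysed here, nor were those that failed the filter on low values. Of list genes with such a probe set, 3 of 9 neutrophil and 3 of 9 T and NK cell genes passed that filter. So did 2 of 8 B cell and 3 of 8 adipocyte genes. A gene low in the pools can pass it through tumour arrays alone, and can then be called higher but hardly lower. Alternatives are in the closing section.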

Additional observations from a re-analysis of the deposited data

Results flagged for a closer look

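Among 225 lists and genes checked for an array far from the others of the tumour group, 15 were marked. Chance alone would mark about 1 in 20, a number near that found, and Mucl2, Scgb1b27 and Scgb2b27 had been named for their spread among tumours, so their marks repeat how they were chosen. In tumour C these were Mucl2 (14.65), Scgb1b27 (13.47), Scgb2b27 (13.06), Tesc (4.99), Nrarp (8.70) and Chn1 (2.16). Tumour B stood apart for Slc5a5 (6.07), Cited1 (4.33) and the skeletal muscle list mean (2.92), the last within the low band of the array. Tumour A did so for Csn2 (10.47) and Igfbp3 (12.35), tumour D for Xdh (7.45) and Hk1 (8.69), and tumour E for Apc (9.13) and Foxn1 (4.02).

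The tumour minus normal difference in Lin- cells departed from that in CD29+CD24+ cells, by the test of the difference itself, for 246 genes, of which the 8 highest and 8 lowest are given. Higher in Lin- were Esm1 (3.54), Sdr42e1 (2.49), AI429214 (2.13), Trpm1 (2.11), Asb8 (1.86), Cdh17 (1.58), Chn1 (1.55) and Mfsd4b4 (1.48). Lower were Igfbp3 (-8.13), Krt14 (-7.33), Antxr1 (-7.31), Krt17 (-7.30), Snai2 (-7.19), Sparc (-6.98), Col17a1 (-6.89) and Tenm2 (-6.79). From CD29hiCD24+ cells 4817 departed, and at the extremes Dsc1 (7.98), Them5 (7.84), Krt1 (7.16), Elovl4 (6.77), Tmem204 (6.70), Krt23 (6.68), Serpinb11 (6.37) and Calml3 (6.34) were higher in Lin-, and Tesc (-6.65), Aoc1 (-6.26), Kif2c (-6.07), Akr1c13 (-5.91), Steap1 (-5.79), Rasgrf1 (-5.79), Ccdc162 (-5.67) and Entpd3 (-5.64) were lower.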

How the results depend on the processing

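The count of 5470 genes stayed within 1.5 times under the other scalings, filters, probe set rules and model terms tried. It was 4464 to 5458 when 1 tumour or pool was left out. The genes called were not all the same. Of the 5470, 4453 were called with the same sign after median centring and 4529 with the number range as a term. With tumour E as the only tumour, a setting chosen after seeing the data like the one without tumours C and E, it was 3545, with 2123 lower. Median centring gave 4058 higher genes by adding a constant to every difference. For the difference from CD29+CD24+ (246 genes, 25 higher and 221 lower), the tumour and pool entered as a replicate block gave 444, with 63 higher and 381 lower; the counts of the other comparisons stayed within 1.5 times with the block. The higher count was 6 under the stricter filter, 16 with only the groups compared, 14 without tumours C and E and 75 with tumour E alone, which left 94 lower. Leaving out 1 replicate gave 184 to 297 in all, 15 to 47 higher and 137 to 257 lower. For the difference from CD29hiCD24+ tumour E alone gave 2789, with 1312 lower, and leaving out 1 replicate gave 3253 to 4663, with 1789 to 2596 lower. Signs turned only for named genes that did not pass in Lin-. AI429214 was 0.0749 after centring and 0.23 with the description-number range as a term. Amy1 was 0.10 after centring, 2.56 with that term and 4.40 with tumour E alone, and -2.06 to 0.96 without 1 replicate. Csn2 was -0.51 and Sparc -0.14 with that term. Sparc was -0.38 and Tmem204 -0.13 with tumour E alone. Over the mean of probe sets Col1a1 was 0.0220 and Pdgfra 0.20; without 1 replicate they were -1.06 to 0.35 and -0.78 to 0.20. Without 1 replicate Ptprc was -2.74 to 0.0017 and Sdr42e1 -0.17 to 0.26, and Sdr42e1 was -0.37 without tumours C and E. The cause of these changes was not tested. With 5 and 3 arrays a group, precision rests on the number of arrays, and values near the low end of the array carry little information on size.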
